A study of Mus musculus with 8 samples.

Results

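The p53 target genes described here are 37 genes chosen by name, out of 37310 genes listed for all 8 libraries, and each was found by mapping its Ensembl ID to a mouse symbol. They are p53 itself (Trp53, ENSMUSG00000059552), its feedback regulators such as Mdm2 (ENSMUSG00000020184), and genes that p53 is known to activate, such as Cdkn1a (ENSMUSG00000023067). They were grouped by role into 7 genes of p53 and its feedback, 8 of cell cycle arrest, 8 of cell death, 5 of DNA repair and 9 of metabolism. All 37 passed the filter on low counts in the 6 libraries of the J1 line.

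p53 is a transcription factor that unstressed cells keep low through Mdm2 and Mdm4, which bind it and, in the case of Mdm2, mark it for degradation. DNA damage and other stress free the p53 protein, which then binds pairs of short DNA motifs and raises the transcription of genes that halt the cell cycle, prime cells for death, repair DNA and adjust metabolism, Mdm2 among them. Because this control acts mainly on the protein, the Trp53 transcript is not a readout of p53 activity. In mouse embryonic stem cells p53 is also known for lowering Nanog after DNA damage.

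Poly-A RNA was sequenced from feeder-free mouse embryonic stem cells in 4 groups of 2 libraries. KD+Ccnb1 cells were J1 cells (strain 129S4/SvJae) with knockdown of eIF4A3 and overexpression of Ccnb1. eIF4A3 is the helicase core of the exon junction complex, which marks spliced mRNA, and Ccnb1 encodes cyclin B1. KD cells were J1 cells with eIF4A3 knockdown and control overexpression, CCE KD cells were CCE cells (strain 129/Sv) with eIF4A3 knockdown, and control cells were J1 cells with control knockdown and control overexpression. In all groups, per the labels, transfected and drug-selected cells were infected with lentivirus and then selected with puromycin (1 µg/mL, 2.5 days). Collection was on day 4.5 of infection. Neither the knockdown sequences nor the promoter of the overexpressed gene are given in the labels, nor the p53 status of either line. They also do not say whether the 2 libraries of a group came from separate cultures. The p-values below therefore measure the spread between these libraries, which may be technical. A CCE control was not analysed here, and the CCE files were prepared differently from the J1 files, so CCE KD levels are a description and enter no test.

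The libraries differed in ways that touch all results below. Gene counts per library numbered 5871830 and 6620504 in KD+Ccnb1, 4398141 and 3596615 in KD, 23965806 and 25573379 in CCE KD and 5740965 and 8340023 in control. Reads not aligned made up 40.8% and 45.2% of the KD files, against at most 15.9% of the other J1 files. Over genes with a summed count between 60 and 2000, the 2 libraries of 1 group differed by 1.88 times counting noise in KD+Ccnb1, 22.0 times in KD and 3.41 times in control. The targeted gene, Eif4a3, had 47.3 and 53.5 CPM in KD+Ccnb1, 75.7 and 37.5 CPM in KD, 48.8 and 53.9 CPM in CCE KD and 73.5 and 83.7 CPM in control libraries. It was lower than control in every KD+Ccnb1 library and in KD replicate 2 but not in KD replicate 1, and neither difference from control was called (-0.63 ± 0.33 (adjusted p = 0.211) for KD and -0.72 ± 0.32 (adjusted p = 0.19) for KD+Ccnb1, as log2 fold change ± SE), so each knockdown group is named by its label. Ccnb1 together with its copies Ccnb1-ps and Gm12856 had 437 and 447 CPM in KD+Ccnb1 libraries, 126 and 156 CPM in KD libraries, 247 and 262 CPM in CCE KD libraries and 166 and 165 CPM in control libraries. Counts of Ccnb1 alone were 136 and 131 CPM in KD+Ccnb1 and 135 and 129 CPM in control libraries, a difference not called (-0.06 ± 0.135 (adjusted p = 0.814)). The excess in the sum lay in the copies, with Ccnb1-ps at 267 and 283 CPM in KD+Ccnb1 and 28.0 and 33.3 CPM in control libraries. The 10 markers of pluripotent cells were all detected in every library, and their summed level was 9027 and 9057 CPM in KD+Ccnb1, 4398 and 4144 CPM in KD, 4316 and 4678 CPM in CCE KD and 9053 and 9002 CPM in control. The summed level of 10 markers of fibroblasts or feeder cells was 127 to 193 CPM in J1 libraries, with 4 to 6 of the 10 at 0, and 763 and 646 CPM in CCE KD libraries. Most of that sum was Vim, and Col1a2, Col3a1, Postn, Lum, Dcn and Acta2 were at 0 in both KD libraries. Col1a1, a collagen of fibroblasts, had 3.07 and 2.72 CPM in KD+Ccnb1, 14.3 and 17.2 CPM in KD, 17.5 and 14.3 CPM in CCE KD and 1.39 and 1.08 CPM in control libraries, and was called higher in KD against control (3.504 ± 0.613 (adjusted p = 0.0121)) and lower in KD+Ccnb1 against KD (-2.36 ± 0.58 (adjusted p = 0.0249)). The part of these differences in the results below was not tested, and in such bulk RNA fewer cells of a type and less RNA per cell cannot be told apart.

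p53 binds DNA at a response element made of a pair of 10-base motifs separated by up to 13 bases, and promoter sequences from RefSeq (GRCm38.p6, 250 bases before to 50 bases after the start) were searched for it. The table held 47 promoters of 30 of the 37 genes. A strict match to the 10-base p53 motif, which reads the same on both strands, stood in 13 of them, or 27.7%, against 8.36% of all 32851 promoters in the table. A response element with at most 2 mismatches in its 20 motif bases stood in 5, or 10.6%, against 4.08% of all promoters. These matches are a description of letters, not of binding, and a promoter with no match says only that the letters are not in this window. The 5 promoters belong to Ccng1, Cdkn1a, Gtse1, Rps27l and Sesn1. Below are those of the 3 genes whose transcripts were called in the data that follow, printed in the direction of transcription. Capitals mark the 2 motifs of the response element. Where more than 1 pair matched, the pair with the fewest mismatches, then the smallest gap, is marked.
Ccng1 (chr11:40755237-40755536, minus strand): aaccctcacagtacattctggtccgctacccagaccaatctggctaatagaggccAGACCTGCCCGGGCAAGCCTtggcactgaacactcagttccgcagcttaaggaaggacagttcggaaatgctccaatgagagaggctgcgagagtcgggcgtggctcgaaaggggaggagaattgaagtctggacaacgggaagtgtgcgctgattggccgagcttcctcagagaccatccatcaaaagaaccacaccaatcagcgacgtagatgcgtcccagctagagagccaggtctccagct
Cdkn1a, upstream start (chr17:29090729-29091028, plus strand): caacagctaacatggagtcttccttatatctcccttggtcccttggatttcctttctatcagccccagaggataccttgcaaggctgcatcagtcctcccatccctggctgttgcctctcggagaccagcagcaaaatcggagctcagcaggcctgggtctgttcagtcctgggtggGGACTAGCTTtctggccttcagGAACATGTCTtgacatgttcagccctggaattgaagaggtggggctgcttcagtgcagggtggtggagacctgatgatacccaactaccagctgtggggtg
Gtse1, downstream start (chr15:85859696-85859995, plus strand): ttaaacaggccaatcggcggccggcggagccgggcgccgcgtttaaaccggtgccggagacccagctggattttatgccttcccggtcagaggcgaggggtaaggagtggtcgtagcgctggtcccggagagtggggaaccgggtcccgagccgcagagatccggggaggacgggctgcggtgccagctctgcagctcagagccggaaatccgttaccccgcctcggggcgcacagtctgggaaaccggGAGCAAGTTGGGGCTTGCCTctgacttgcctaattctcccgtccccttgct
In Ccng1 the element held 1 mismatch and no gap, and began 195 bases before the start. The Cdkn1a element held 0 mismatches, with a gap of 12 bases. It began 73 bases before the upstream of its 2 starts, while the promoter of the other start held no match. The second motif of this element is followed directly by tgacatgttc, which matches the motif with 1 mismatch. Together they form a further pair with no gap, of which only the first motif is in capitals. In Gtse1 the element held 1 mismatch and lay across the start itself.

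Levels are given as CPM, counts scaled to the total gene count of a library. Differences are log2 fold changes ± their standard error (SE), from 1 edgeR quasi-likelihood fit over the 6 J1 libraries, and a gene was called at a Benjamini-Hochberg adjusted p under 0.05 over the 14462 genes tested. That fit rescales the libraries, with TMM factors of 1.06 and 1.05 in KD, 1.00 and 0.997 in KD+Ccnb1 and 0.950 and 0.944 in control, so a log2 fold change against control is slightly smaller than the ratio of the CPM levels. The 3 comparisons share libraries in pairs, so values of a gene in them are given side by side and are not independent.

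In KD cells, most p53 target genes stood above control, and the rise ran through all 5 roles. Of the 37 genes, 26 were called higher, 2 were called lower (Trp53 and Tigar) and 9 were not called, against 11.0% of all genes tested called higher and 17.9% called lower (28.9% either way). The median log2 fold change of the 37 genes was 1.19, against -0.09 over all genes. The 2 KD libraries lay above both control libraries for 27 of the 37 genes and below both for 3, against 30.9% and 31.4% of all genes. By role, 5 of 7 feedback genes, 6 of 8 arrest genes, 6 of 8 death genes, 2 of 5 repair genes and 7 of 9 metabolic genes rose. An offset for GC content and gene length left 26 genes higher and 2 lower, but moved the share of higher genes among all called genes to 51.5%, against 38.0% without it. Without control replicate 1 or 2, the genes called higher numbered 17 and 15, and without KD replicate 2 those called lower numbered 5, against 1 without control replicate 2.

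In KD+Ccnb1 cells, more of the genes were called higher than lower against control. Of the 37, 15 were called higher, 2 were called lower (Psrc1 and Pidd1) and 20 were not called, against 9.35% of all genes called higher and 10.5% called lower (19.8% either way). The 2 genes called lower were below the share of all genes, so their number is no result about the 37 as a group. The median log2 fold change was 0.46, against 0.07 over all genes. The KD+Ccnb1 libraries lay above both control libraries for 23 genes and below both for 7, against 45.3% and 33.7% of all genes. Those called higher were 4 of 7 feedback genes, 6 of 8 arrest genes, 3 of 8 death genes, 0 of 5 repair genes and 2 of 9 metabolic genes. The counts depended on single libraries: 9 and 8 genes were called higher without KD+Ccnb1 replicate 1 or 2, and 5 and 4 without control replicate 1 or 2, with 0 called lower in each. Without KD replicate 1 or 2 the counts were 22 higher and 7 lower, and in a fit of the KD+Ccnb1 and control libraries alone, which leaves out the KD libraries with their wide spread, 21 higher and 6 lower, where the same kind of fit of KD and control alone gave 23 higher and 2 lower. With the GC and length offset the counts were 15 and 2, and the share of higher genes among all called genes was 36.8%, against 47.2% without it.

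Between the 2 knockdown groups, more of the genes were called lower than higher in KD+Ccnb1. Of the 37, 15 were called lower in KD+Ccnb1 than in KD, 8 were called higher (Trp53, Mdm4, Ccng1, Tob1, Zmat3, Gtse1, Eda2r and Tigar) and 14 were not called, against 16.0% of all genes called lower and 22.8% called higher (38.8% either way). The 8 genes called higher were near the share of all genes, so their number is no result about the 37 as a group. The median log2 fold change was -0.44, against 0.14 over all genes. The KD+Ccnb1 libraries lay below both KD libraries for 21 genes and above both for 12, against 31.4% and 39.1% of all genes. Among the genes called lower were 1 feedback gene, 4 arrest genes, 4 death genes, 1 repair gene and 5 metabolic genes. With the GC and length offset, 18 were lower and 5 higher, the median over all genes moved to -0.13, and 45.0% of all called genes were higher, against 58.7% without it. Genes called higher numbered 2 and 3 without KD+Ccnb1 replicate 1 or 2, 5 without either control replicate and 5 in a fit of these 2 groups alone.

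**Figure D1:**
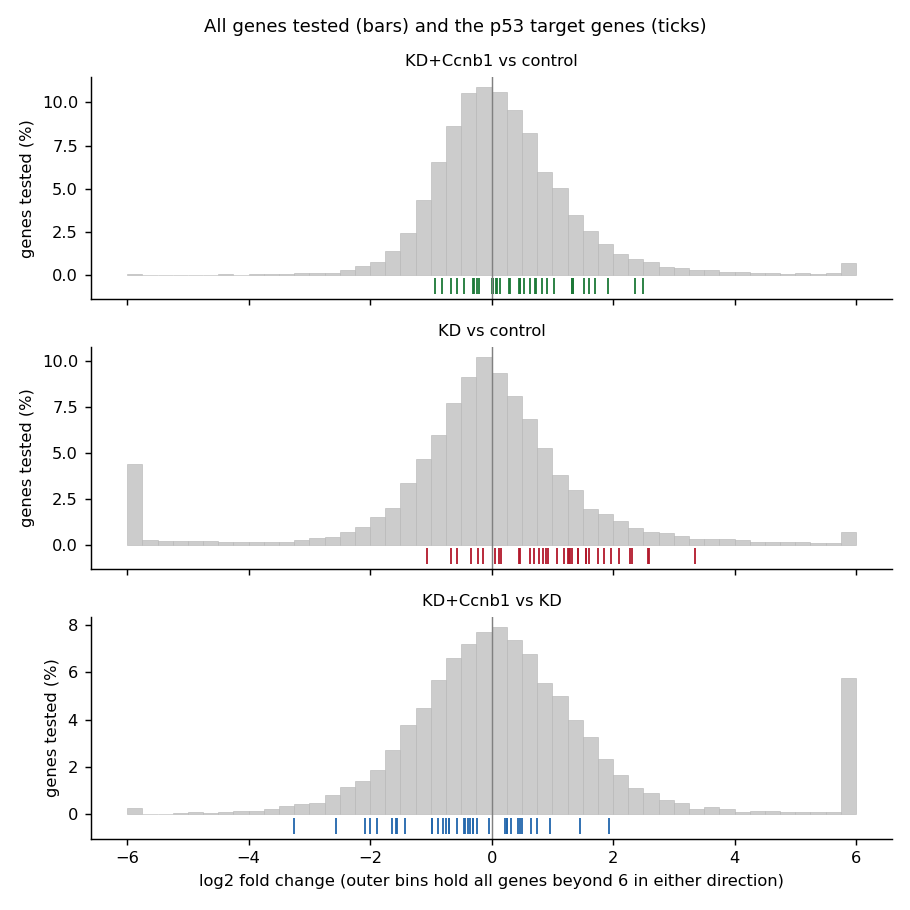
Share of all 14462 genes tested (bars, in percent) by log2 fold change in KD+Ccnb1 against control, KD against control and KD+Ccnb1 against KD cells. Ticks below the bars stand for the 37 p53 target genes, whose median is 0.46, 1.19 and -0.44 in these panels. The outer bars hold all genes at or beyond the ends of the axis.

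The summed level of the 37 genes was 6364 and 6272 CPM in KD+Ccnb1 libraries, 8561 and 8496 CPM in KD libraries, 11479 and 10819 CPM in CCE KD libraries and 3872 and 3878 CPM in control libraries. The 2 libraries of a group lay close together and no 2 groups overlapped. In every role KD libraries were the highest of the J1 groups and control libraries the lowest, but the distances between the groups differed by role. Feedback genes summed to 2716 and 2644 CPM in KD+Ccnb1 and 2798 and 2747 CPM in KD, against 1204 and 1201 CPM in control, so that the sums of both knockdown groups were near each other. Single feedback genes were not alike in the knockdown groups, since Mdm2 was called lower and Trp53, Mdm4 and Ccng1 higher in KD+Ccnb1 than in KD. Repair genes summed to 157 and 161 CPM in KD+Ccnb1 and 327 and 298 CPM in KD, against 125 and 122 CPM in control, so that KD+Ccnb1 lay nearer to control. Most of the repair sum in KD was 1 gene, Ercc5, with 62.8 and 61.2 CPM in KD+Ccnb1, 208 and 181 CPM in KD and 45.6 and 50.5 CPM in control. Metabolic genes summed to 711 and 720.5 CPM in KD+Ccnb1 and 1309 and 1222 CPM in KD, against 633 and 587 CPM in control.

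**Figure D2:**
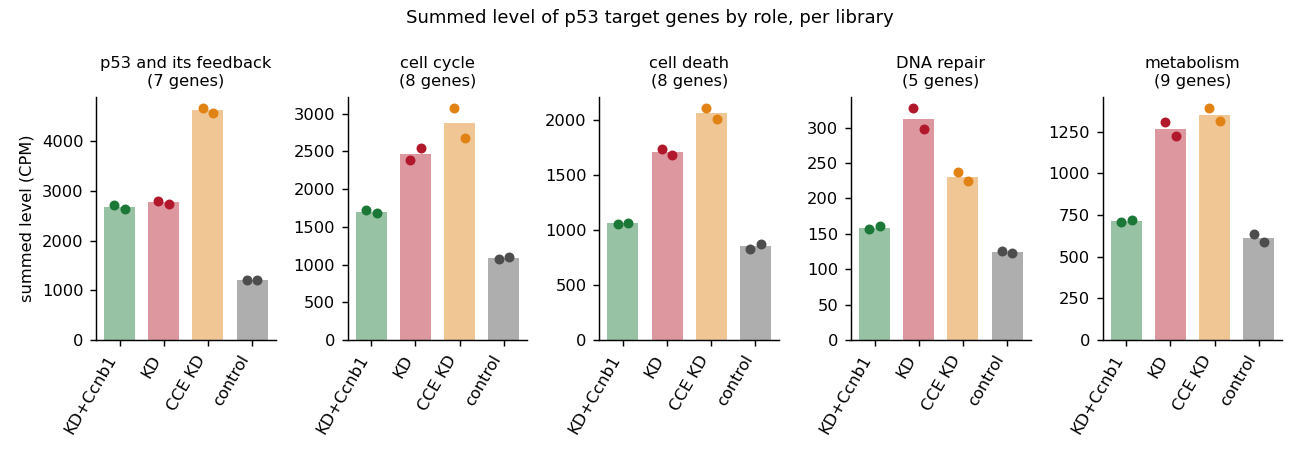
Summed CPM of the p53 target genes of each role, with 1 point per library and a bar at the mean of the 2 libraries of a group. In each panel the KD libraries lie above the control libraries, and the KD+Ccnb1 libraries lie between them.

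Per kilobase of annotated exon, which allows levels of different genes to be set side by side, the genes spanned a wide range. In KD+Ccnb1 cells the highest mean levels were 183 CPM per kilobase for Ccng1 and 181 CPM per kilobase for Gtse1. In KD cells Psrc1 led with 268 CPM per kilobase, followed by Phlda3 with 255 and Mdm2 with 198. In CCE KD cells Phlda3 led with 397 CPM per kilobase. In control cells Psrc1 led with 114 CPM per kilobase, followed by Trp53 with 108 and Gtse1 with 104. Fas and Rrm2b were the 2 lowest in every group, with 0.270 and 1.16 CPM per kilobase in KD+Ccnb1, 0.876 and 1.43 in KD, 2.66 and 1.43 in CCE KD and 0.510 and 0.440 in control cells.

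**Figure D3:**
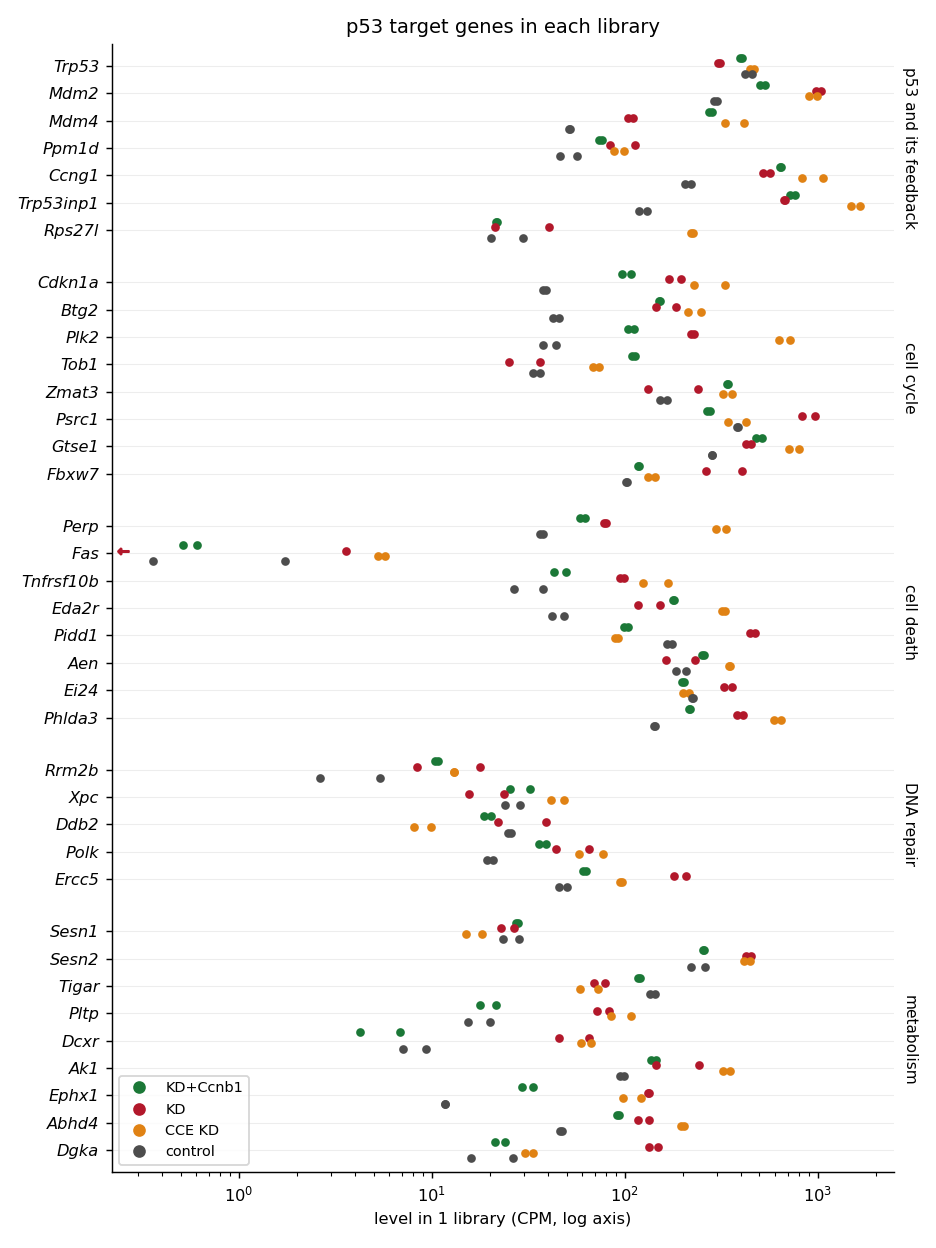
Level of each p53 target gene in each of the 8 libraries, as CPM on a log axis, by role, with 1 point per library. Trp53inp1 has the highest point, at 1658 CPM in a CCE KD library, and the arrow marks the KD library in which Fas was at 0.

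The feedback genes are p53 itself, genes that restrain it and genes that act with it. Trp53 had 408 and 397 CPM in KD+Ccnb1, 312 and 306 CPM in KD, 445 and 469 CPM in CCE KD and 419 and 458 CPM in control libraries. Both KD libraries lay below the other J1 libraries. The log2 fold change was -0.66 ± 0.071 (adjusted p = 0.00272) in KD against control and 0.46 ± 0.071 (adjusted p = 0.00566) in KD+Ccnb1 against KD, while KD+Ccnb1 against control gave -0.20 ± 0.070 (adjusted p = 0.106). A stretch of 353 bases of Trp53 matches the pseudogene Trp53-ps at 97.7% identity, and reads can be split between them. With its counts added, Trp53 had 505 and 502 CPM in KD+Ccnb1, 322 and 324 CPM in KD, 445 and 469 CPM in CCE KD and 450 and 487 CPM in control libraries, and KD libraries were again the lowest of the J1 groups, while KD+Ccnb1 libraries lay above both control libraries instead of below them.

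Mdm2, the ubiquitin ligase that degrades p53 and is itself a p53 target, had 533 and 501 CPM in KD+Ccnb1, 977 and 1038 CPM in KD, 999 and 904 CPM in CCE KD and 303 and 292 CPM in control libraries. KD+Ccnb1 libraries lay between KD and control libraries with no overlap. The log2 fold change was 1.61 ± 0.067 (adjusted p = 0.000293) in KD and 0.72 ± 0.066 (adjusted p = 0.00227) in KD+Ccnb1 against control. For Mdm2, KD+Ccnb1 against KD gave -0.88 ± 0.065 (adjusted p = 0.000557). Mdm4, the related protein that blocks p53 without degrading it, had 274 and 284 CPM in KD+Ccnb1, 111 and 104 CPM in KD, 415 and 331 CPM in CCE KD and 51.2 and 52.3 CPM in control libraries. Here the KD+Ccnb1 libraries were the highest of the J1 groups. Mdm4 rose by 0.90 ± 0.091 (adjusted p = 0.00239) in KD and by 2.35 ± 0.092 (adjusted p = 0.000322) in KD+Ccnb1 against control, and stood 1.46 ± 0.090 (adjusted p = 0.000324) above KD in KD+Ccnb1 cells. With the GC and length offset the KD+Ccnb1 values were 1.57 against control and 0.67 against KD. The copy Mdm4-ps shares 4184 bases at 94.1% identity, and with its counts added the levels were 300 and 301 CPM in KD+Ccnb1, 137 and 120 CPM in KD, 415 and 331 CPM in CCE KD and 54.3 and 57.4 CPM in control libraries, in the same order.

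Ccng1, cyclin G1, which guides a phosphatase to Mdm2, had 639 and 644 CPM in KD+Ccnb1, 564 and 522 CPM in KD, 836 and 1063 CPM in CCE KD and 222 and 205 CPM in control libraries. Its log2 fold change was 1.19 ± 0.069 (adjusted p = 0.000533) in KD and 1.51 ± 0.069 (adjusted p = 0.000459) in KD+Ccnb1 against control. Between the knockdown groups, KD+Ccnb1 minus KD was 0.32 ± 0.068 (adjusted p = 0.0158), and -0.36 (adjusted p = 0.0171) with the GC and length offset, so its direction rests on that choice. Trp53inp1, a nuclear protein that helps p53 activate genes of cell death, had 765 and 721 CPM in KD+Ccnb1, 679.6 and 671 CPM in KD, 1658 and 1494 CPM in CCE KD and 131 and 119 CPM in control libraries. It had the highest log2 fold change of the 37 genes in KD+Ccnb1 against control, 2.50 ± 0.073 (adjusted p = 0.000309), beside 2.28 ± 0.073 (adjusted p = 0.000198) in KD against control. The difference between KD+Ccnb1 and KD was 0.22 ± 0.069 (adjusted p = 0.0528), and -0.63 (adjusted p = 0.00253) with the offset. Ppm1d, the Wip1 phosphatase that switches the p53 response off, had 74.1 and 76.6 CPM in KD+Ccnb1, 114 and 84.2 CPM in KD, 88.3 and 98.9 CPM in CCE KD and 56.8 and 46.4 CPM in control libraries. It rose by 0.79 ± 0.19 (adjusted p = 0.0326) in KD against control, and gave 0.47 ± 0.19 (adjusted p = 0.15) in KD+Ccnb1 against control and -0.31 ± 0.19 (adjusted p = 0.253) in KD+Ccnb1 against KD.

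Rps27l, a ribosomal protein of a multigene family whose counts are uncertain, was called in no comparison, with log2 fold changes of 0.15 ± 0.38, -0.29 ± 0.38 and -0.44 ± 0.38 in KD against control, KD+Ccnb1 against control and KD+Ccnb1 against KD. It lay at 20.4 to 40.7 CPM in J1 libraries and at 226 and 221 CPM in CCE KD libraries. Among the feedback genes, the call of Ppm1d in KD was lost without either control library, without either KD+Ccnb1 library and in a fit of KD and control alone, with adjusted p up to 0.234. The call of Mdm2 in KD+Ccnb1 against control was lost without either control library, with adjusted p up to 0.0575. Against KD, the call of Trp53 was lost without KD+Ccnb1 replicate 1 (adjusted p = 0.0563) and that of Ccng1 without either KD+Ccnb1 library (adjusted p up to 0.103).

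Among the arrest genes, Cdkn1a, which encodes the kinase inhibitor p21 and is the classical p53 target for arrest, had 96.6 and 108 CPM in KD+Ccnb1, 197 and 169 CPM in KD, 333 and 229 CPM in CCE KD and 37.8 and 39.2 CPM in control libraries. KD+Ccnb1 libraries lay between KD and control libraries with no overlap. The log2 fold change was 2.09 ± 0.13 (adjusted p = 0.000649) in KD and 1.33 ± 0.13 (adjusted p = 0.00275) in KD+Ccnb1 against control. For Cdkn1a, KD+Ccnb1 against KD gave -0.76 ± 0.13 (adjusted p = 0.0076). Plk2, a polo-like kinase, had 112 and 104 CPM in KD+Ccnb1, 222 and 229.9 CPM in KD, 719 and 628 CPM in CCE KD and 37.8 and 44.0 CPM in control libraries. It followed the same order, with 2.31 ± 0.12 (adjusted p = 0.000482) in KD and 1.32 ± 0.12 (adjusted p = 0.00236) in KD+Ccnb1 against control. For Plk2, KD+Ccnb1 against KD gave -0.99 ± 0.12 (adjusted p = 0.00252).

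Btg2, an antiproliferative protein that binds the deadenylase complex, had 151 and 152 CPM in KD+Ccnb1, 146 and 184 CPM in KD, 248 and 212 CPM in CCE KD and 45.6 and 42.7 CPM in control libraries. Both knockdown groups lay above control and overlapped each other, with 1.75 ± 0.15 (adjusted p = 0.00137) in KD and 1.71 ± 0.15 (adjusted p = 0.00196) in KD+Ccnb1 against control and -0.04 ± 0.14 (adjusted p = 0.859) in KD+Ccnb1 against KD. Tob1, a relative of Btg2, had 113 and 109.5 CPM in KD+Ccnb1, 25.2 and 36.4 CPM in KD, 73.8 and 68.2 CPM in CCE KD and 36.6 and 33.3 CPM in control libraries. KD and control libraries overlapped, and KD+Ccnb1 libraries lay above both. Its log2 fold change was -0.34 ± 0.22 (adjusted p = 0.305) in KD against control, 1.60 ± 0.21 (adjusted p = 0.0066) in KD+Ccnb1 against control and 1.94 ± 0.22 (adjusted p = 0.0021) in KD+Ccnb1 against KD. Zmat3, an RNA-binding zinc finger protein, had 341 and 342 CPM in KD+Ccnb1, 132 and 239 CPM in KD, 325 and 360.1 CPM in CCE KD and 153 and 165 CPM in control libraries. Its KD libraries stood on either side of the control libraries, and gave 0.06 ± 0.27 (adjusted p = 0.893) against control. The KD+Ccnb1 libraries were higher than both groups, by 1.03 ± 0.27 (adjusted p = 0.0481) against control and 0.96 ± 0.27 (adjusted p = 0.036) against KD, and by 0.38 (adjusted p = 0.299) against KD with the GC and length offset.

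Psrc1, a microtubule-binding protein of the spindle, had 277 and 268 CPM in KD+Ccnb1, 834 and 971 CPM in KD, 425 and 342 CPM in CCE KD and 381 and 386 CPM in control libraries. KD+Ccnb1 libraries were the lowest and KD libraries the highest. The log2 fold change was 1.08 ± 0.090 (adjusted p = 0.00128) in KD and -0.57 ± 0.090 (adjusted p = 0.0112) in KD+Ccnb1 against control. For Psrc1, KD+Ccnb1 against KD gave -1.65 ± 0.092 (adjusted p = 0.000262). Gtse1, a microtubule-binding protein that also carries p53 out of the nucleus, had 514 and 481 CPM in KD+Ccnb1, 428 and 449.9 CPM in KD, 806 and 713 CPM in CCE KD and 285 and 283 CPM in control libraries. It rose by 0.47 ± 0.068 (adjusted p = 0.00691) in KD and 0.73 ± 0.068 (adjusted p = 0.00237) in KD+Ccnb1 against control, and by 0.26 ± 0.068 (adjusted p = 0.0297) in KD+Ccnb1 against KD. Fbxw7, the adaptor through which cyclin E and Myc are marked for degradation, had 117 and 119 CPM in KD+Ccnb1, 405 and 265 CPM in KD, 144 and 133 CPM in CCE KD and 101 and 103 CPM in control libraries. The KD libraries stood above the other J1 libraries, with 1.56 ± 0.20 (adjusted p = 0.00431) in KD and 0.14 ± 0.19 (adjusted p = 0.695) in KD+Ccnb1 against control, and -1.43 ± 0.20 (adjusted p = 0.00387) in KD+Ccnb1 against KD, which the offset moved to -2.02.

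Several calls of arrest genes rested on single libraries. In KD against control, those of Gtse1 and Fbxw7 were lost without either control library, with adjusted p up to 0.0956 and 0.0745. Against control, the KD+Ccnb1 calls of Btg2 and Gtse1 were lost without either control library (up to 0.0575 and 0.0591), that of Cdkn1a also without KD+Ccnb1 replicate 2 (up to 0.0616), and those of Tob1, Psrc1 and Zmat3 without any 1 of these 4 libraries (up to 0.107, 0.137 and 0.297). The Zmat3 call was lost with the offset as well. Against KD, the call of Plk2 was lost without KD+Ccnb1 replicate 2 (adjusted p = 0.0517) and that of Cdkn1a without either KD+Ccnb1 library (up to 0.118). The calls of Zmat3 and Gtse1 there were lost without any 1 of the 4 KD+Ccnb1 and control libraries and in a fit of the 2 groups alone, that of Zmat3 also with the offset and that of Gtse1 also with a filter at 5 CPM (up to 0.299 and 0.179 over these settings).

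Among the death genes, Eda2r, a receptor for ectodysplasin, had 178 and 181 CPM in KD+Ccnb1, 152 and 117 CPM in KD, 332 and 320.0 CPM in CCE KD and 48.8 and 42.0 CPM in control libraries. Both knockdown groups lay above control, with 1.42 ± 0.16 (adjusted p = 0.00314) in KD and 1.91 ± 0.16 (adjusted p = 0.00177) in KD+Ccnb1. KD+Ccnb1 against KD gave 0.50 ± 0.15 (adjusted p = 0.0486), and -0.32 (adjusted p = 0.186) with the GC and length offset. Tnfrsf10b, the mouse death receptor for TRAIL, had 43.3 and 49.8 CPM in KD+Ccnb1, 95.0 and 98.7 CPM in KD, 167 and 125 CPM in CCE KD and 26.8 and 37.8 CPM in control libraries. Its log2 fold change was 1.42 ± 0.22 (adjusted p = 0.00799) in KD against control, 0.45 ± 0.21 (adjusted p = 0.214) in KD+Ccnb1 against control and -0.98 ± 0.21 (adjusted p = 0.0179) in KD+Ccnb1 against KD. Tnfrsf10b shares stretches of 303 to 405 bases at 90% identity or more with 12 other genes, so part of its counts is uncertain. Perp, a membrane protein of desmosomes, had 62.0 and 59.1 CPM in KD+Ccnb1, 80.5 and 78.4 CPM in KD, 296 and 336 CPM in CCE KD and 38.0 and 36.6 CPM in control libraries. It rose by 0.94 ± 0.14 (adjusted p = 0.00805) in KD and 0.62 ± 0.14 (adjusted p = 0.0333) in KD+Ccnb1 against control, and gave -0.31 ± 0.14 (adjusted p = 0.138) in KD+Ccnb1 against KD.

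Pidd1, the scaffold of a complex that activates caspase-2, had 105 and 99.5 CPM in KD+Ccnb1, 474 and 445 CPM in KD, 92.2 and 89.2 CPM in CCE KD and 166 and 177 CPM in control libraries. Only the KD libraries lay above control, and KD+Ccnb1 libraries lay below it. The log2 fold change was 1.27 ± 0.080 (adjusted p = 0.000626) in KD and -0.82 ± 0.080 (adjusted p = 0.00272) in KD+Ccnb1 against control. For Pidd1, KD+Ccnb1 against KD gave -2.09 ± 0.082 (adjusted p = 0.000135). Phlda3, which competes with the kinase Akt for membrane lipids, had 216 and 219 CPM in KD+Ccnb1, 411 and 384 CPM in KD, 648 and 591 CPM in CCE KD and 142 and 143 CPM in control libraries. KD+Ccnb1 libraries lay between KD and control libraries, with 1.32 ± 0.071 (adjusted p = 0.000482) in KD and 0.53 ± 0.071 (adjusted p = 0.00646) in KD+Ccnb1 against control, 1.12 in KD+Ccnb1 with the offset. For Phlda3, KD+Ccnb1 against KD gave -0.79 ± 0.070 (adjusted p = 0.000969). Ei24, a membrane protein of the endoplasmic reticulum, had 204 and 198 CPM in KD+Ccnb1, 361 and 327 CPM in KD, 216 and 201 CPM in CCE KD and 224 and 227 CPM in control libraries. It rose by 0.46 ± 0.076 (adjusted p = 0.0104) in KD against control, and gave -0.24 ± 0.076 (adjusted p = 0.0798) in KD+Ccnb1 against control and -0.70 ± 0.076 (adjusted p = 0.00185) in KD+Ccnb1 against KD.

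Aen, an apoptosis-enhancing nuclease, and Fas, the death receptor, were called in no comparison. Aen lay between 163 and 257 CPM in J1 libraries, with log2 fold changes of -0.14 ± 0.18 in KD and 0.30 ± 0.18 in KD+Ccnb1 against control and 0.44 ± 0.18 in KD+Ccnb1 against KD. Fas lay between 0 and 3.61 CPM in J1 libraries, where a count of 0 allows up to 0.682 CPM in the KD library concerned. Its log2 fold changes were 0.63 ± 1.74 in KD and -0.93 ± 1.78 in KD+Ccnb1 against control and -1.56 ± 1.80 in KD+Ccnb1 against KD, so no difference was detectable at this depth. Among the calls, those of Perp and Ei24 in KD were lost without any 1 of the control and KD+Ccnb1 libraries (adjusted p up to 0.0994 and 0.125), that of Tnfrsf10b without control replicate 1 (0.0722) and that of Eda2r without control replicate 2 (0.0595). Against control, the KD+Ccnb1 calls of Perp, Pidd1 and Phlda3 were lost without any 1 of these 4 libraries (up to 0.282, 0.0638 and 0.0981) and that of Eda2r without control replicate 2 (0.053). Against KD, that of Tnfrsf10b was lost without either KD+Ccnb1 library (up to 0.18), and that of Eda2r without any 1 of the 4 KD+Ccnb1 and control libraries, with a filter at 5 CPM and in a fit of the 2 groups alone (up to 0.218).

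Among the repair genes, Ercc5, the XPG endonuclease of nucleotide excision repair, had 62.8 and 61.2 CPM in KD+Ccnb1, 208 and 181 CPM in KD, 97.5 and 95.0 CPM in CCE KD and 45.6 and 50.5 CPM in control libraries. KD libraries stood above the other J1 libraries, with 1.86 ± 0.13 (adjusted p = 0.000745) in KD and 0.29 ± 0.13 (adjusted p = 0.176) in KD+Ccnb1 against control. For Ercc5, KD+Ccnb1 against KD gave -1.57 ± 0.13 (adjusted p = 0.000752). Polk, a DNA polymerase that copies damaged templates, had 39.3 and 36.1 CPM in KD+Ccnb1, 65.3 and 44.2 CPM in KD, 77.2 and 57.9 CPM in CCE KD and 20.9 and 19.3 CPM in control libraries. It rose by 1.29 ± 0.25 (adjusted p = 0.0162) in KD against control, and gave 0.83 ± 0.25 (adjusted p = 0.0689) in KD+Ccnb1 against control and -0.46 ± 0.24 (adjusted p = 0.197) in KD+Ccnb1 against KD. The call in KD was lost without any 1 of the control and KD+Ccnb1 libraries and in a fit of KD and control alone, with adjusted p up to 0.149.

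Rrm2b, Xpc and Ddb2 were called in no comparison. Rrm2b shares 1051 bases at 96.1% identity with the copy Gm8616, which is not among the genes counted, so its level is uncertain. Rrm2b, a subunit of ribonucleotide reductase, lay at 2.64 to 17.8 CPM in J1 libraries, with 1.56 ± 0.63 (adjusted p = 0.125) in KD and 1.32 ± 0.63 (adjusted p = 0.209) in KD+Ccnb1 against control and -0.23 ± 0.61 (adjusted p = 0.802) in KD+Ccnb1 against KD. Xpc, a damage sensor of excision repair, lay at 15.6 to 32.5 CPM and gave -0.57 ± 0.31 (adjusted p = 0.229) in KD and 0.07 ± 0.31 (adjusted p = 0.915) in KD+Ccnb1 against control and 0.64 ± 0.31 (adjusted p = 0.161) in KD+Ccnb1 against KD. Ddb2, a sensor of ultraviolet damage, lay at 18.6 to 39.2 CPM and gave 0.12 ± 0.34 (adjusted p = 0.831) in KD and -0.45 ± 0.34 (adjusted p = 0.418) in KD+Ccnb1 against control and -0.57 ± 0.34 (adjusted p = 0.243) in KD+Ccnb1 against KD. Ddb2 shares 23.8% of its exon bases with Acp2 on the opposite strand, and strand handling is not given in the sources used here, so reads of the 2 genes cannot be told apart there.

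The 3 highest log2 fold changes of the 37 genes in KD against control were those of metabolic genes. Ephx1, microsomal epoxide hydrolase, had 33.4 and 29.5 CPM in KD+Ccnb1, 132 and 134 CPM in KD, 122 and 97.8 CPM in CCE KD and 11.7 and 11.8 CPM in control libraries. The 3 J1 groups did not overlap, and Ephx1 gave 3.34 ± 0.17 (adjusted p = 0.00042) in KD, the highest of the 37 genes, and 1.35 ± 0.16 (adjusted p = 0.0049) in KD+Ccnb1 against control. For Ephx1, KD+Ccnb1 against KD gave -2.00 ± 0.16 (adjusted p = 0.000689). Dcxr, a reductase of sugars and dicarbonyls, had 6.81 and 4.23 CPM in KD+Ccnb1, 45.9 and 65.1 CPM in KD, 59.5 and 66.7 CPM in CCE KD and 7.14 and 9.35 CPM in control libraries. Its log2 fold change was 2.59 ± 0.38 (adjusted p = 0.0073) in KD and -0.66 ± 0.38 (adjusted p = 0.294) in KD+Ccnb1 against control, and -3.25 ± 0.40 (adjusted p = 0.0027) in KD+Ccnb1 against KD, the lowest of the 37 genes in that comparison. Dgka, a kinase of diacylglycerol, had 21.3 and 24.0 CPM in KD+Ccnb1, 133 and 149 CPM in KD, 33.4 and 30.5 CPM in CCE KD and 26.5 and 16.1 CPM in control libraries. KD+Ccnb1 and control libraries overlapped, with 2.58 ± 0.27 (adjusted p = 0.00259) in KD and 0.03 ± 0.27 (adjusted p = 0.963) in KD+Ccnb1 against control. For Dgka, KD+Ccnb1 against KD gave -2.56 ± 0.27 (adjusted p = 0.00167).

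Pltp, a phospholipid transfer protein, had 17.9 and 21.6 CPM in KD+Ccnb1, 71.6 and 82.6 CPM in KD, 108 and 84.9 CPM in CCE KD and 20.03 and 15.3 CPM in control libraries. It gave 1.97 ± 0.24 (adjusted p = 0.00402) in KD and 0.09 ± 0.24 (adjusted p = 0.847) in KD+Ccnb1 against control. For Pltp, KD+Ccnb1 against KD gave -1.88 ± 0.24 (adjusted p = 0.00307). Pltp shares 19.3% of its exon bases with Ctsa on the opposite strand, whose levels were 50.6 and 41.2 CPM in KD+Ccnb1, 231 and 317 CPM in KD and 65.1 and 67.3 CPM in control libraries. Reads in that shared part cannot be told apart, so the level of Pltp is uncertain. Abhd4, a hydrolase of lipids, had 91.6 and 93.8 CPM in KD+Ccnb1, 134 and 118 CPM in KD, 196 and 203 CPM in CCE KD and 47.4 and 46.2 CPM in control libraries. Both knockdown groups lay above control, by 1.27 ± 0.12 (adjusted p = 0.00207) in KD and 0.91 ± 0.12 (adjusted p = 0.0067) in KD+Ccnb1, and KD+Ccnb1 against KD gave -0.36 ± 0.12 (adjusted p = 0.0627). Ak1, adenylate kinase, had 137 and 145 CPM in KD+Ccnb1, 244 and 145 CPM in KD, 351 and 324 CPM in CCE KD and 94.8 and 99.3 CPM in control libraries. KD replicate 2 lay close to the KD+Ccnb1 libraries, and the log2 fold change was 0.85 ± 0.23 (adjusted p = 0.045) in KD and 0.46 ± 0.23 (adjusted p = 0.233) in KD+Ccnb1 against control and -0.39 ± 0.23 (adjusted p = 0.249) in KD+Ccnb1 against KD.

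Sesn2, a sestrin that restrains the growth kinase complex mTORC1, had 255 and 257 CPM in KD+Ccnb1, 452 and 427 CPM in KD, 448 and 417 CPM in CCE KD and 262 and 222 CPM in control libraries. KD+Ccnb1 libraries overlapped control, with 0.70 ± 0.094 (adjusted p = 0.00527) in KD and 0.01 ± 0.093 (adjusted p = 0.978) in KD+Ccnb1 against control. For Sesn2, KD+Ccnb1 against KD gave -0.70 ± 0.094 (adjusted p = 0.00363). Its relative Sesn1 was called in no comparison, at 22.8 to 28.4 CPM in J1 libraries, with -0.22 ± 0.24 (adjusted p = 0.553) in KD and 0.03 ± 0.24 (adjusted p = 0.958) in KD+Ccnb1 against control and 0.25 ± 0.24 (adjusted p = 0.471) in KD+Ccnb1 against KD. Tigar, a phosphatase that slows glycolysis, had 120.1 and 117 CPM in KD+Ccnb1, 69.6 and 79.5 CPM in KD, 58.8 and 72.5 CPM in CCE KD and 135 and 144 CPM in control libraries. It was the 1 metabolic gene called lower in KD, with -1.06 ± 0.12 (adjusted p = 0.00324) against control, and it gave -0.30 ± 0.12 (adjusted p = 0.132) in KD+Ccnb1 against control and 0.75 ± 0.12 (adjusted p = 0.00645) in KD+Ccnb1 against KD.

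In KD against control, the call of Dcxr was lost without either control library (adjusted p up to 0.0934) and those of Sesn2, Tigar and Pltp without control replicate 2 (0.0579, 0.0564 and 0.0638). That of Ak1 was lost without any 1 of the control and KD+Ccnb1 libraries and in a fit of KD and control alone (up to 0.261). The KD+Ccnb1 calls of Ephx1 and Abhd4 against control were lost without any 1 of the same 4 libraries (up to 0.0791 and 0.103). Against KD, those of Sesn2 and Tigar were lost without either KD+Ccnb1 library (up to 0.0574 and 0.0663) and that of Pltp without KD+Ccnb1 replicate 1 (0.0519). The offset for GC content and length gave -0.31 for Sesn2 against KD, also not called.

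**Figure D4:**
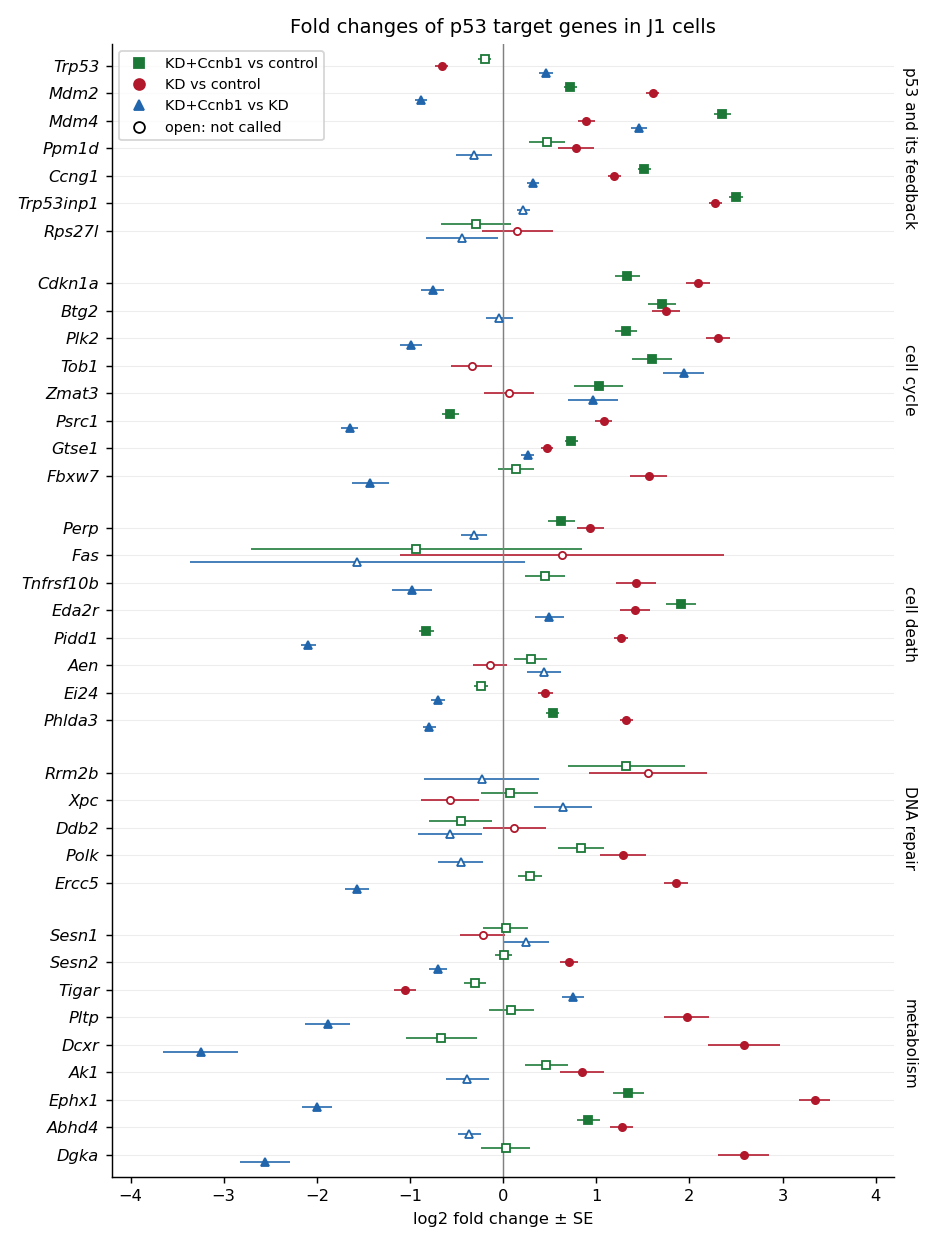
Log2 fold change ± SE of each p53 target gene in KD+Ccnb1 against control (squares), KD against control (circles) and KD+Ccnb1 against KD (triangles), by role. Filled symbols were called and open ones were not. In KD against control 26 genes are filled to the right of 0 and 2 to the left.

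Another 14 known p53 targets, outside the 37, were counted in the same fit. In KD against control 9 were called higher, 3 lower and 2 neither way, in KD+Ccnb1 against control 4, 3 and 7, and in KD+Ccnb1 against KD 2, 7 and 5. Over all genes tested, 11.0% were called higher and 17.9% lower in KD against control, 9.35% and 10.5% in KD+Ccnb1 against control, and 22.8% and 16.0% in KD+Ccnb1 against KD. The 3 of 14 called lower in KD were thus near the share of all genes. Among the called genes with the smallest adjusted p in KD against control were Ptpn14 (1.55 ± 0.081 (adjusted p = 0.000448)), Pml (0.82 ± 0.048 (adjusted p = 0.000536)) and Trp73 (2.14 ± 0.20 (adjusted p = 0.00199)) upward and Pmaip1 (-0.89 ± 0.19 (adjusted p = 0.0203)) and Gadd45a (-0.95 ± 0.23 (adjusted p = 0.0323)) downward. Pmaip1, which encodes the death protein Noxa, had 92.5 and 85.9 CPM in KD+Ccnb1, 18.0 and 21.7 CPM in KD, 109 and 114 CPM in CCE KD and 32.7 and 33.3 CPM in control libraries, and was higher in KD+Ccnb1 by 1.36 ± 0.18 (adjusted p = 0.00633) against control and 2.25 ± 0.19 (adjusted p = 0.000815) against KD. Bax, which opens the outer membrane of mitochondria, was lower in KD+Ccnb1, with -0.95 ± 0.094 (adjusted p = 0.00283) against control and -0.93 ± 0.095 (adjusted p = 0.00147) against KD. The others named by the rule were Rap2b (0.87 ± 0.14 (adjusted p = 0.0112)), Ptpn14 (1.03 ± 0.080 (adjusted p = 0.00147)), Pml (-0.49 ± 0.048 (adjusted p = 0.00285)) and Gadd45a (-1.02 ± 0.23 (adjusted p = 0.0323)) in KD+Ccnb1 against control, and Pml (-1.31 ± 0.049 (adjusted p = 0.000123)) and Trp73 (-1.98 ± 0.20 (adjusted p = 0.00152)) in KD+Ccnb1 against KD.

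Of 20 regulators of the p53 protein, 3 were called higher, 5 lower and 12 neither way in KD against control, 4, 4 and 12 in KD+Ccnb1 against control, and 4, 7 and 9 in KD+Ccnb1 against KD. In KD these counts were near those over all genes (11.0% higher and 17.9% lower), as was the count higher against KD (22.8% of all genes), so they are no result about the regulators as a group. In KD+Ccnb1 against control 9.35% of all genes were called higher and 10.5% lower, and 16.0% were called lower against KD. The damage kinase Prkdc (1.903 ± 0.239 (adjusted p = 0.00431)), the checkpoint kinase Chek2 (0.74 ± 0.18 (adjusted p = 0.0344)) and the acetyltransferase Kat5 (0.48 ± 0.12 (adjusted p = 0.0351)) were higher in KD. The acetyltransferase Ep300 (-0.99 ± 0.081 (adjusted p = 0.00118)), the deubiquitinase Usp7 (-0.44 ± 0.060 (adjusted p = 0.00561)) and nucleophosmin, Npm1 (-0.51 ± 0.075 (adjusted p = 0.00715)), were lower. Ep300 had 348 and 339.6 CPM in KD+Ccnb1, 74.8 and 78.1 CPM in KD, 319.7 and 325 CPM in CCE KD and 137 and 137 CPM in control libraries, and in KD+Ccnb1 it was higher by 1.25 ± 0.078 (adjusted p = 0.000888) against control and 2.25 ± 0.082 (adjusted p = 0.000123) against KD. In KD+Ccnb1 against control, Crebbp (1.67 ± 0.21 (adjusted p = 0.00567)) and the ubiquitin ligase Huwe1 (0.67 ± 0.086 (adjusted p = 0.00605)) were higher too, and Npm1 (-1.11 ± 0.076 (adjusted p = 0.00107)), Rpl11 (-1.38 ± 0.15 (adjusted p = 0.00389)) and Usp7 (-0.49 ± 0.060 (adjusted p = 0.0053)) were lower. Against KD, the deacetylase Sirt1 (1.98 ± 0.16 (adjusted p = 0.000781)) and Huwe1 (0.70 ± 0.087 (adjusted p = 0.00281)) were higher, and Kat5 (-1.06 ± 0.12 (adjusted p = 0.00227)), Npm1 (-0.59 ± 0.076 (adjusted p = 0.00306)) and Rpl11 (-1.17 ± 0.15 (adjusted p = 0.00353)) were lower. Rpl11 and Npm1 belong to families with many copies, so their counts are uncertain.

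Of 18 cell cycle genes that p53 lowers through p21 and the DREAM repressor complex, 1 was called higher, 8 lower and 9 neither way in KD against control, 2, 1 and 15 in KD+Ccnb1 against control, and 8, 1 and 9 in KD+Ccnb1 against KD. Over all genes, 11.0% were called higher and 17.9% lower in KD, 9.35% and 10.5% in KD+Ccnb1 against control, which the counts there were near, and 22.8% and 16.0% in KD+Ccnb1 against KD. Their median log2 fold change was -0.38, -0.08 and 0.34 in these comparisons, against -0.09, 0.07 and 0.14 over all genes. The overexpressed gene, Ccnb1, is among the 18 and was called in no comparison. In KD+Ccnb1 libraries, transcripts of the introduced and the cells' own Ccnb1 cannot be told apart, and reads can be split with its copies. Plk1, a kinase of mitosis, had 123 and 110.4 CPM in KD+Ccnb1, 34.1 and 38.6 CPM in KD, 168 and 192 CPM in CCE KD and 93.9 and 86.7 CPM in control libraries, with -1.47 ± 0.15 (adjusted p = 0.00222) in KD against control and 1.76 ± 0.15 (adjusted p = 0.000795) in KD+Ccnb1 against KD. Mybl2 (-0.49 ± 0.058 (adjusted p = 0.00369)) and Birc5 (-0.56 ± 0.080 (adjusted p = 0.00667)) were also lower in KD, and Cenpf (0.45 ± 0.078 (adjusted p = 0.0121)) was higher. In KD+Ccnb1 against control, Cenpf (0.87 ± 0.078 (adjusted p = 0.00218)) and Nek2 (0.93 ± 0.15 (adjusted p = 0.0112)) were higher and Birc5 (-0.60 ± 0.079 (adjusted p = 0.00633)) was lower. Against KD, Nek2 (1.40 ± 0.15 (adjusted p = 0.00179)) and Ccna2 (1.53 ± 0.24 (adjusted p = 0.00627)) were higher and Cdc25c (-0.94 ± 0.22 (adjusted p = 0.0224)) was lower in KD+Ccnb1.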

How the data were processed

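Each library has a file of raw counts per gene, deposited by the authors, in which 5 rows are summaries without a gene. Per the submitters' processing notes, the tools were HTSeq 0.11.2, Bowtie2 2.3.4.3, edgeR 3.26.8 and SAMtools 1.9, on mm9. Their roles and strand handling are not given in the sources used here. In the deposited counts, CCE files list 0 unaligned and 0 low-quality reads and J1 files do not, so the files of the 2 lines were not made alike, and levels between lines are not comparable. Summary rows, 58.6% to 80.0% of the reads in a file, entered neither library sizes nor tests.

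CPM were computed from all gene counts. The test was edgeR 4.0.16's quasi-likelihood F (R 4.3.3), two-sided, with TMM, filterByExpr, 1 fit over the 6 J1 libraries and Benjamini-Hochberg adjustment over 14462 genes at 0.05. The SE is the size of the log2 fold change divided by the root of F. Alternatives were DESeq2 1.42.0, no filter, a filter at 5 CPM, a replicate block, 2 groups alone, an offset for GC content and length, counts divided by the spread, and each library left out. A count of 0 allows up to 3 counts, and this floor covers counting error only.

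Copies were searched with BLAST (90% identity over 300 bases or more) and overlapping exons in GENCODE M21, whose build is not mm9, so gene coordinates are not printed. The 37 genes and the lists were chosen with earlier results of these data known. Levels in every library are given for Trp53, Mdm4 and each gene called in KD against control or KD+Ccnb1 against KD with a mean of at least 20 CPM in 1 J1 group, and values of the fit and ranges for the rest. From the other lists, up to 3 called genes with the smallest adjusted p per direction are named; 1 gene that this rule names is not reported here.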

Additional observations from a re-analysis of the deposited data

How the results depend on the processing

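Under all 13 alternatives, 15 of the 28 calls in KD against control, 4 of the 17 in KD+Ccnb1 against control and 12 of the 23 in KD+Ccnb1 against KD held. Mdm4 was the 1 gene whose call held in all 3 comparisons. The replicate numbers do not pair the libraries: deviations of libraries with the same number correlated at -0.024 to 0.011 across 11721 genes. With a replicate block, 25 genes were higher and 2 lower in KD against control, 13 and 2 in KD+Ccnb1 against control, and 6 and 15 in KD+Ccnb1 against KD. The block ended the calls of Ak1 in the first, Perp and Zmat3 in the second and Gtse1 and Eda2r in the third, and no other. At this depth, at most 8340023 gene counts in J1, a difference in Fas was not detectable. Where 1 library is left out, the lone library is assumed to vary like the others. The cause of the changes below was not tested.

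Genes called among all tested in KD against control numbered 4184, against 2631 with a replicate block, 1760 with 2 groups alone and 701 to 10225 with 1 library left out. For KD+Ccnb1 against control the number was 2865, against 4656 with DESeq2, 8658 with 2 groups alone, 8683 with counts divided by the spread and 254 to 8806 with 1 library left out. For KD+Ccnb1 against KD it was 5616, against 1674 to 11078 with 1 library left out. Of the 37 genes, those higher in KD numbered 15 to 28 and those lower 1 to 5 with 1 library left out. The same ranges were 4 to 22 and 0 to 7 in KD+Ccnb1 against control, and 4, 6 and 5 were lower with DESeq2, 2 groups alone and counts divided by the spread. In KD+Ccnb1 against KD, 2 to 11 were higher with 1 library left out, and 5 with 2 groups alone and with the offset.

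Apart from Ccng1, Trp53inp1, Eda2r and, without KD replicate 2, Zmat3 (adjusted p = 1.63e-06), values that changed sign were called neither before nor after. With the offset, KD+Ccnb1 against KD gave -0.36 for Ccng1, -0.63 for Trp53inp1 and -0.32 for Eda2r, KD against control gave 0.051 for Tob1 and 0.035 for Sesn1, and KD+Ccnb1 against control gave -0.25 for Fbxw7. With counts divided by the spread, KD against control gave -0.044 for Zmat3 and -0.086 for Ddb2, and KD+Ccnb1 against KD gave 0.065 for Btg2, which was 0.022 with no filter. With 2 groups alone, KD+Ccnb1 against control gave -0.015 for Sesn1, -0.040 for Sesn2 and -0.007 for Dgka, and Sesn2 was -0.001 with a filter at 5 CPM. With 1 library left out, KD against control ranged from -0.42 to 0.49 for Rps27l, -0.47 to 0.40 for Zmat3, -5.70 to 2.07 for Fas, -0.45 to 0.065 for Aen and -0.39 to 0.45 for Ddb2. KD+Ccnb1 against control ranged from -0.52 to 0.035 for Rps27l, -1.65 to 0.55 for Fas, -0.098 to 0.25 for Xpc, -0.083 to 0.19 for Sesn1, -0.086 to 0.14 for Sesn2, -0.070 to 0.30 for Pltp and -0.27 to 0.43 for Dgka. KD+Ccnb1 against KD ranged from -0.77 to 0.14 for Rps27l, -0.16 to 0.20 for Btg2, -2.53 to 4.85 for Fas, -0.63 to 0.47 for Rrm2b and -0.65 to 0.081 for Ak1.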
